A study of Mus musculus with 28 samples.

Results

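The diets were compared on day 2 of feeding in the retroperitoneal fat pad of the mouse, a depot of white fat behind the peritoneum, on 4 of the 28 arrays of a feeding time course. The arrays were chosen by their labels, as all those of that day: 2 from mice that ate a conjugated linoleic acid (CLA), the trans-10 cis-12 isomer, as 0.5% of the diet and 2 from mice on the control diet. Both diets share the strain, which the labels write C57BK/6J, an age of 9 weeks, both pads of 10 mice combined into a pool, Trizol extraction and 15 µg of total RNA labelled with biotin. Sex is not given in the labels, and single mice cannot be told apart in a pool. It is also not stated whether both arrays of a diet came from 1 pool. If they did, the p-values here measure technical spread only. The question was which transcripts of the pad differed after 2 days of CLA, and where this differed from day 1 and day 3, which have 2 CLA arrays and 2 control arrays of their own.

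White adipocytes take up glucose and amino acids, turn their carbon into fatty acids, store these as triglyceride in a lipid droplet and release them again by lipolysis. This CLA isomer is known to shrink white fat in mice, with loss of lipid-making enzymes and inflammation of the depot. Monocytes that enter inflamed fat become macrophages, and macrophages of fat can also divide in place.

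Levels are log2 probe-set signals. Every gene among the 18194 tested has the level of 1 probe set, so levels are compared between arrays and never between genes. A difference is the mean of the CLA arrays minus that of the control arrays on the log2 scale, with its standard error from limma (SE, n = 2 arrays in each diet). "Rose" and "fell" are used for a Benjamini-Hochberg adjusted p from limma under 0.05 over all genes. Only 2 arrays in each diet limit the precision. A lower signal from fewer cells of a type and from less RNA in each cell cannot be told apart in whole tissue.

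The arrays carried the transcripts that define fat. Adipoq, the adipocyte hormone adiponectin, read 12.44 and 12.66 on the CLA arrays and 13.57 and 13.75 on the control arrays. Fabp4, the fatty acid binding protein of adipocytes, read 13.66 and 13.86 with CLA and 13.83 and 14.02 without. Lists of markers of kidney (12 genes), adrenal gland (12), exocrine pancreas (6) and mesothelium (12) were measured as a check on the dissection. Their median levels over the 4 arrays lay between 3.78 and 4.08 for kidney, 3.76 and 3.94 for adrenal gland and 3.56 and 4.00 for pancreas, and between 5.84 and 6.44 for mesothelium.

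Control array 1 of this day lay between the diets, and the counts of most gene lists are therefore also given against control array 1 alone. Across the 18194 genes it correlated at 0.981 with control array 2, but at 0.988 with CLA array 1 and 0.979 with CLA array 2. Control array 2 correlated at 0.954 and 0.961 with the CLA arrays. With the mean of the control arrays of the other days, control array 1 correlated at 0.983 and control array 2 at 0.997. The control arrays stood at least 2-fold apart at 741 genes, against 853 genes for the control pair of day 1 and 70 to 255 genes for those of the other days. The CLA arrays stood 2-fold apart at 391 genes.

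The position of control array 1 was measured on genes called at least 2-fold higher or lower with CLA on day 3, a day that shares no array with day 2. Where CLA stood at least 2-fold above control array 2 on day 2, at 846 genes of 1164, the median gene of control array 1 had gone 45.9% of the way from control array 2 to the CLA mean in linear signal. The interquartile range was 35.2% to 59.0%, and 827 of the 846 lay between. Where CLA stood at least 2-fold below, at 590 genes of 947, the median was 48.3% of the way (interquartile range 31.0% to 65.1%), and 556 lay between. On the log2 scale these medians were 63.5% and 35.2%. The 2-fold condition uses the day 2 CLA mean and control array 2, which also enter the share. Such a choice can favour genes with control array 1 between, so these genes were not chosen independently of day 2.

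**Figure D1:**
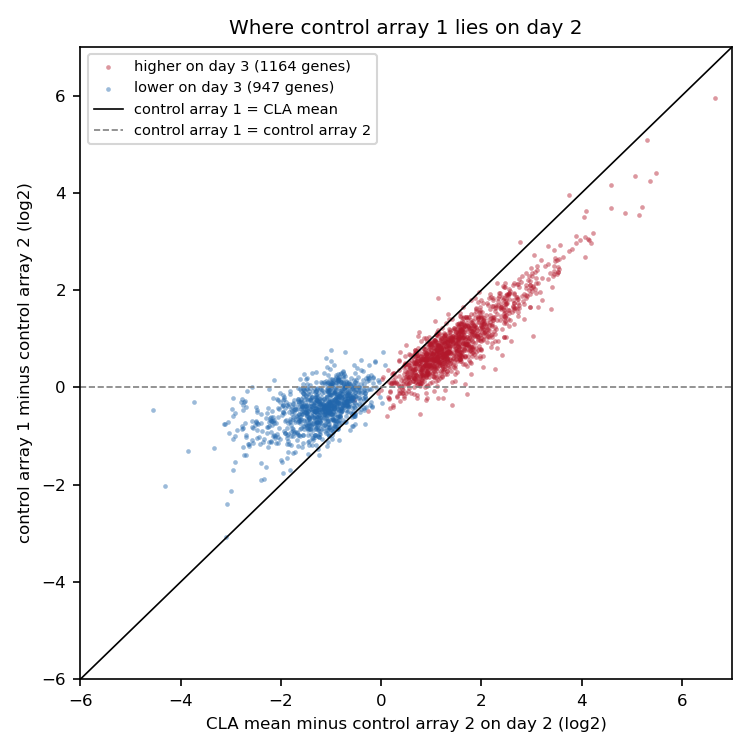
Each point is a gene called at least 2-fold higher (red, 1164 genes) or lower (blue, 947 genes) with CLA on day 3, with the log2 difference of the day 2 CLA mean from control array 2 on the x axis and the log2 difference of control array 1 from control array 2 on the y axis. Most points lie between the dashed line, where the control arrays would be equal, and the solid line, where control array 1 would equal the CLA mean.

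The control probe sets at the ends of Gapdh and Actb, a measure of RNA length, also differed between arrays. The 3′ signal minus the 5′ signal of Gapdh was 0.86 and 0.72 on the CLA arrays, 0.62 on control array 1 and 0.38 on control array 2 (log2). For Actb it was 1.30 and 1.14 on the CLA arrays and 1.63 and 1.61 on the control arrays, the opposite order. On day 1 the Gapdh difference was 1.33 on control array 1, 0.15 on control array 2 and 1.31 and 1.27 on the CLA arrays. The part of RNA quality in the results was not tested.

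With both control arrays, 1852 genes (10.2%) passed the test, of which 881 rose (4.84%) and 971 fell (5.34%). Against control array 1 alone 343 genes passed (1.89%), 67 higher (0.368%) and 276 lower (1.52%). Against control array 2 alone 2434 genes passed (13.4%), 1367 higher (7.51%) and 1067 lower (5.86%). In all 3 comparisons, which share the CLA arrays, 66 genes rose (0.363%) and 267 fell (1.47%). The choice of control array moved the number of rises more than that of falls. Leaving out CLA array 2 gave 884 genes, and leaving out CLA array 1 gave 498 rises. With only the 12 arrays of days 1 to 3 in the fit the count with both control arrays was 508. With only the 4 arrays of day 2 no gene passed. The median difference of all genes was -0.02. At an unadjusted p under 0.05 in limma, 3714 of the 18194 genes differed with both control arrays. Counts of list genes at an unadjusted p against control array 1 alone are given below without the share over all genes. No conclusion about a list rests on those counts. Of the genes named here with values, 168 were called on day 2, 92 as rises and 76 as falls. Of these rises 17, and of these falls 41, passed against control array 1 alone, and against control array 2 alone 90 and 73. The 17 are Adam8, Atp6v0d2, Bcat1, Brca1, Cd44, Fbxo2, Fcgr1, Il10, Mcm6, Mpeg1, Nceh1, Pclaf, Pdia6, Rgs1, Rnf128, Slc37a2 and Tlr13, and every other rise named here missed the threshold against control array 1 alone in limma.

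**Figure D2:**
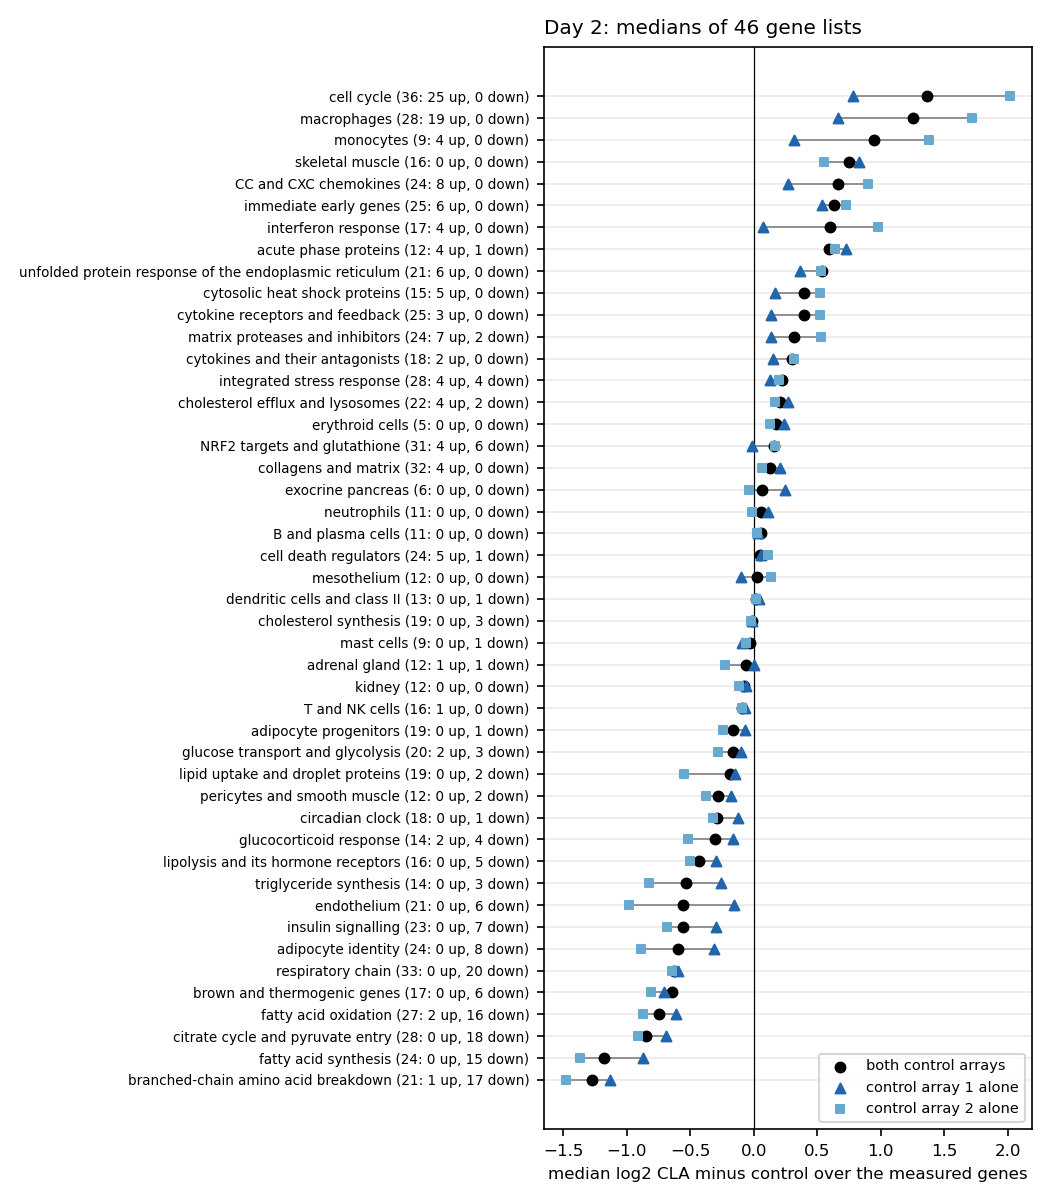
The median log2 difference of the measured genes of each of 46 gene lists on day 2 is shown against both control arrays (black circles), control array 1 alone (triangles) and control array 2 alone (squares), and the counts beside each name are measured genes and those that rose and fell against both. The cell cycle list is highest at 1.37 and the list of branched-chain amino acid breakdown lowest at -1.27, and the cell cycle, macrophage and monocyte medians move most with the choice of control array.

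The largest falls that held against each control array included genes of fat, mitochondria and peroxisomes. Only genes with both CLA arrays below both control arrays were ranked, so the lack of overlap is a condition of the choice. Cidea, a protein that fuses lipid droplets and is abundant in thermogenic fat, read 5.41 and 5.24 on the CLA arrays and 9.42 and 9.88 on the control arrays. It fell by 4.33 ± 0.41, 20.0-fold (adjusted p = 1.74e-06), with differences of -4.10 and -4.56 from control arrays 1 and 2. Both CLA levels lay below both control levels. Eci3, an enoyl-CoA isomerase of peroxisomes, read 4.68 and 4.35 with CLA and 7.94 and 8.25 in controls, and fell by 3.58 ± 0.21 (adjusted p = 1.04e-08). Cox8b, a cytochrome oxidase subunit of muscle and thermogenic fat, read 5.62 and 6.31 against 8.51 and 9.82, and fell by 3.20 ± 0.52 (adjusted p = 0.000575). The control arrays differed from each other by more than 1 log2 unit for Cox8b, but both stood above both CLA arrays.

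Mogat1, which makes diacylglycerol from monoacylglycerol, read 6.35 and 5.79 with CLA and 8.82 and 9.03 without, a fall of 7.24-fold (adjusted p = 1.02e-06). Sult1a1, a sulfotransferase of phenols, read 7.70 and 7.70 against 10.08 and 10.84 and fell 6.77-fold. Inmt, an amine methyltransferase, read 5.70 and 5.34 against 8.05 and 8.50 and fell 6.75-fold. By the choice of genes these levels did not overlap between the diets. On the log2 scale control array 1 lay closer to control array 2 than to either CLA array for each of these genes. The choice favoured this position, as it required a call against control array 1 alone. The other falls among the 12 largest were those of Pxmp2, a peroxisomal membrane channel (-2.74 ± 0.20), Ces1d, a carboxylesterase that hydrolyses triglyceride (-2.70 ± 0.21), and Clybl, a mitochondrial enzyme of citramalate breakdown (-2.68 ± 0.23). Dpyd, which degrades pyrimidines, differed by -2.67 ± 0.35, Fmo1, a flavin monooxygenase, by -2.65 ± 0.21, and Timp4, the metalloproteinase inhibitor of adipocytes, by -2.65 ± 0.33.

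**Figure D3:**
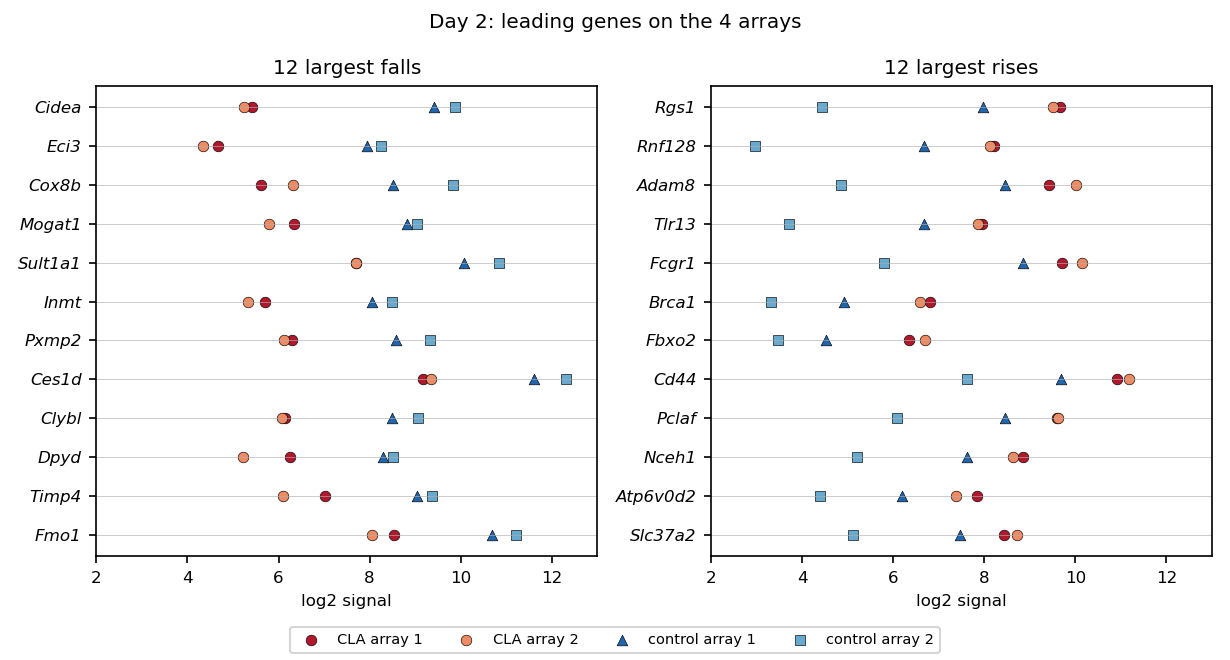
Log2 signal on each of the 4 arrays of day 2 is shown for the 12 largest falls (left) and the 12 largest rises (right). They were ranked among genes called against both control arrays and against each alone, with both CLA arrays beyond both control arrays. On the log2 scale control array 1 (triangles) sits nearer to control array 2 (squares) than to the CLA arrays in the falls. Mogat1 reads 8.82 and 9.03 on these control arrays. In most rises control array 1 sits nearer to the CLA arrays (circles), as for Rgs1 at 7.98 and 4.44 against 9.66 and 9.52 with CLA. Among the genes chosen by day 3, its median position in linear signal was 45.9% of the way to CLA upwards and 48.3% downwards.

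Breakdown of branched-chain amino acids was the list with the lowest median. It runs from transaminases through the branched-chain ketoacid dehydrogenase to propionyl-CoA and acetyl-CoA, which adipocytes use to make fat. Of its 21 measured genes 17 fell and 1 rose, with a median of -1.27. Against control array 1 alone 12 fell and 1 rose, and against control array 2 alone 17 fell and 1 rose. The rise was that of Bcat1, the cytosolic transaminase of the first step, which read 6.24 and 5.99 with CLA and 5.01 and 4.30 in controls, a rise of 1.46 ± 0.25 (adjusted p = 0.000884). Bckdha, the dehydrogenase subunit that commits the ketoacids, read 6.17 and 6.54 against 7.84 and 9.00 and fell by 2.07 ± 0.36 (adjusted p = 0.00105). For Bckdha the difference from control array 1 alone was -1.49 (adjusted p = 0.0504). Ivd, the isovaleryl-CoA dehydrogenase of leucine, read 7.39 and 7.46 against 8.85 and 9.90 and fell by 1.95 ± 0.27. Aldh6a1, which ends valine breakdown at propionyl-CoA, read 8.83 and 8.92 against 10.61 and 11.44 and fell by 2.15 ± 0.20 (adjusted p = 1.32e-06). Mccc2, a subunit of the carboxylase of leucine breakdown, differed by -1.99 ± 0.45 with both control arrays and by -1.29 (adjusted p = 0.231) from control array 1 alone. The diets did not overlap at any of these 5 genes, which were picked among called members. In the whole list both CLA arrays lay below both control arrays at 19 of 21 genes and above at 1. Over all genes these shares were 23.5% and 19%.

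The citrate cycle and the entry of pyruvate into it fell as well. Of 28 measured genes 18 fell and the other 10 did not pass, with a median of -0.85, and 10 fell against control array 1 alone. Without CLA array 2 the number was 12, and without CLA array 1 it was 14. Pcx, which turns pyruvate into oxaloacetate, read 8.43 and 9.48 with CLA and 10.29 and 11.69 in controls and fell by 2.04 ± 0.50 (adjusted p = 0.0121), but its difference from control array 1 alone was -1.34 (adjusted p = 0.325). Mpc1, a subunit of the mitochondrial pyruvate carrier, fell by 1.36 ± 0.23 with no overlap of the diets. Pdha1, of pyruvate dehydrogenase, read 10.31 and 10.04 against 11.25 and 11.58 and fell by 1.24 ± 0.13 (adjusted p = 9.62e-06). Pdk1, a kinase that inhibits that enzyme, fell too, by 1.33 ± 0.20. The dehydrogenase and its inhibitor were thus lower on the same arrays.

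The respiratory chain shifted by less in each gene and in the same direction in nearly all. Of 33 measured subunits 20 fell, with a median of -0.63 and a range of -1.09 to -0.05. In 30 of the 33 both CLA arrays lay below both control arrays, against 23.5% of all genes. The number that fell was 5 against control array 1 alone, 12 against control array 2 alone, 14 without CLA array 1 and 7 without CLA array 2. The median kept its size, at -0.60 and -0.65 against control arrays 1 and 2. Sdha and Sdhb, the catalytic subunits of complex II, which the citrate cycle shares, read 9.98 and 10.24 and 10.28 and 10.16 with CLA and 10.96 and 11.44 and 11.20 and 11.23 without. They fell by 1.09 ± 0.16 and 1.00 ± 0.13. Ndufs1 of complex I fell by 0.93 ± 0.15 and Atp5b of the ATP synthase by 0.94 ± 0.24.

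Fatty acid synthesis had the lowest median among the lipid lists. Of 24 measured genes 15 fell and none of the other 9 passed, with a median of -1.18. Against control array 1 alone 6 fell, and with either CLA array left out 11 fell. Acaca, which makes malonyl-CoA, read 9.35 and 9.59 with CLA and 11.22 and 11.95 in controls and fell by 2.12 ± 0.28 (adjusted p = 0.0001). Fasn, the fatty acid synthase, read 11.45 and 12.06 against 13.02 and 13.47 and fell by 1.49 ± 0.30 (adjusted p = 0.00294), with -1.27 (adjusted p = 0.0873) against control array 1 alone. Elovl6, which extends palmitate to stearate, read 9.19 and 9.01 against 11.52 and 11.81 and fell by 2.57 ± 0.24, 5.92-fold. Scd1, the stearoyl-CoA desaturase, read 13.04 and 13.37 against 13.72 and 13.96 near the top of the array's range, and fell by 0.64 ± 0.16 (adjusted p = 0.0139). A further, dimmer probe set of Scd1 differed by -1.65 (adjusted p = 0.00865 over all probe sets). For all 4 enzymes both CLA arrays lay below both control arrays. The same held at 17 of the 24 genes of the list, with 1 above, against 23.5% below and 19% above over all genes.

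Regulators of the pathway were lower beside its enzymes. Thrsp, the lipogenic nuclear protein Spot 14, read 10.27 and 10.62 with CLA and 12.85 and 13.21 in controls and fell by 2.59 ± 0.22 (adjusted p = 8.72e-07). Mlxipl, the carbohydrate-responsive factor ChREBP, read 6.94 and 6.93 against 8.17 and 8.71 and fell by 1.51 ± 0.30 (adjusted p = 0.00282). Srebf1, the sterol-responsive factor that drives lipogenic genes, fell by 1.19 ± 0.37 (adjusted p = 0.0442). Against control array 1 alone Thrsp was lower by the same test (adjusted p = 6.22e-05), while Mlxipl differed by -1.24 (adjusted p = 0.0943) and Srebf1 by -0.90 (adjusted p = 0.474). Acss2, which activates acetate, fell by 1.82 ± 0.28.

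Genes of fatty acid oxidation fell too. Of 27 measured genes 16 fell, 2 rose and 9 did not pass, with a median of -0.75. The number that fell was 4 against control array 1 alone and 16 against control array 2 alone. Ehhadh, the bifunctional enzyme of peroxisomes, read 6.70 and 6.33 with CLA and 8.11 and 8.55 in controls and fell by 1.82 ± 0.20 (adjusted p = 1.52e-05). Eci1 and Echs1 of mitochondrial oxidation fell by 1.58 ± 0.22 and 1.54 ± 0.37. Cpt1a, the carnitine transferase that admits fatty acids to mitochondria, read 8.76 and 9.36 with CLA and 8.33 and 8.0 in controls and rose by 0.90 ± 0.24 (adjusted p = 0.0201). The next steps of the same route fell, the carnitine carrier Slc25a20 by 0.68 ± 0.21 (adjusted p = 0.0432) and the inner transferase Cpt2 by 0.91 ± 0.22 (adjusted p = 0.0109). The other rise was that of Acot1, a cytosolic acyl-CoA thioesterase, at 0.67 ± 0.19. From control array 1 alone Cpt1a differed by 0.73 (adjusted p = 0.29), Slc25a20 by -0.83 (adjusted p = 0.114) and Cpt2 by -0.66 (adjusted p = 0.267).

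Storage and release of triglyceride had fewer falls. Of 14 measured genes of triglyceride synthesis 3 fell: Mogat1, Pck1, which supplies glycerol phosphate (-1.47 ± 0.28), and Lpin1, the phosphatidate phosphatase (-0.91 ± 0.26). Of 19 genes of lipid uptake and droplets 2 fell, Cidea and the lipoprotein receptor Vldlr (-0.91 ± 0.21). In each of these lists 1 gene passed against control array 1 alone, Mogat1 and Cidea. Of 16 measured genes of lipolysis and its hormone receptors 5 fell, with a median of -0.43. The number was 1 against control array 1 alone, Mc2r, 5 against control array 2 alone and 3 without CLA array 2. Pnpla2, the adipose triglyceride lipase, read 9.47 and 10.27 with CLA and 10.97 and 12.10 in controls and fell by 1.67 ± 0.42 (adjusted p = 0.0142), with -1.10 (adjusted p = 0.349) against control array 1. Mc2r, the corticotropin receptor of adipocytes, read 6.38 and 6.05 against 7.66 and 7.70 and fell by 1.47 ± 0.21 (adjusted p = 0.000237). Ptger3, a prostaglandin E2 receptor that restrains lipolysis, fell by 1.28 ± 0.23 and Pde3b, which degrades cyclic AMP under insulin, by 1.00 ± 0.25. Lipe, the hormone-sensitive lipase, read 8.02 and 9.59 with CLA and 9.00 and 10.77 in controls, a difference of -1.08 (95% interval -2.57 to 0.41). The diets overlapped at Lipe, and array 2 of each diet read higher than array 1. Cholesterol synthesis had 3 falls in 19 measured genes, those of Tm7sf2 (-0.93 ± 0.28), Pmvk (-0.86 ± 0.21) and Nsdhl (-0.75 ± 0.19), and a median of -0.015, beside -0.02 over all genes. None of the 3 passed in limma without CLA array 2 or against control array 1 alone, where 3 genes of the list reached an unadjusted p under 0.05.

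The identity genes of adipocytes were divided. Of 24 measured genes 8 fell and 16 did not pass, with a median of -0.60. Those that fell numbered 2 against control array 1 alone and 13 against control array 2 alone, and 4 without CLA array 1. Adipoq fell by 1.11 ± 0.14 (adjusted p = 6.44e-05), and by a like amount against each control array (-1.02 and -1.20). Slc2a4, the insulin-regulated glucose transporter GLUT4, read 6.70 and 7.32 with CLA and 8.54 and 9.77 in controls and fell by 2.15 ± 0.37 (adjusted p = 0.00111). Nnat, an imprinted proteolipid gene, read 6.20 and 6.66 against 8.72 and 10.74 and fell by 3.30 ± 0.58 (adjusted p = 0.0012). Both Slc2a4 and Nnat missed the threshold against control array 1 alone, at -1.53 (adjusted p = 0.0523) and -2.29 (adjusted p = 0.0561).

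Other identity genes gave small or uncertain differences. Fabp4 differed by -0.17 (95% interval -0.47 to 0.14), and its diets overlapped. Pparg, the master regulator of adipocytes, read 10.04 and 10.18 with CLA and 10.29 and 10.78 in controls, a difference of -0.43 (95% interval -0.80 to -0.05, adjusted p = 0.167). Against control array 2 alone the difference of Pparg was -0.67 (adjusted p = 0.0311). Cebpa, its partner, differed by -0.63 (95% interval -1.24 to -0.02). Lep, the hormone leptin, read 9.26 and 9.94 against 9.55 and 10.14 and differed by -0.25 (95% interval -0.92 to 0.43), with overlapping diets. Its sign turned without CLA array 1 (0.095) and without control array 2 (0.05).

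Genes of glucose use, insulin signalling and heat production included further falls. Of 20 measured genes of glucose transport and glycolysis 3 fell, the transporter Slc2a4 and the lactate dehydrogenase genes Ldhb (-1.54 ± 0.19) and Ldha (-0.69 ± 0.20), and 2 rose, the leukocyte hexokinase Hk3 (1.55 ± 0.46) and the lactate exporter Slc16a3 (0.66 ± 0.20). Neither rise passed without CLA array 1, without CLA array 2 or against control array 1 alone, where Ldhb was the 1 gene of the list called. Of 23 measured genes of insulin signalling 7 fell, with a median of -0.56, and 3 fell without CLA array 2. The falls numbered 3, with a median of -0.30, against control array 1 alone, and against control array 2 alone 7 with a median of -0.68. Irs1, the receptor substrate, read 8.95 and 8.62 with CLA and 9.63 and 10.23 in controls and fell by 1.15 ± 0.18 (adjusted p = 0.000581). Gys2, a glycogen synthase, read 6.67 and 6.34 against 8.14 and 8.16 and fell by 1.65 ± 0.21, and the factor Foxo1 fell by 0.96 ± 0.23. Of 17 measured brown and thermogenic genes 6 fell, with a median of -0.65, with 4 against control array 1 alone and 3 without CLA array 2. Beside Cidea and Cox8b these included Ucp3, a mitochondrial carrier (-1.39 ± 0.22), and Otop1, a proton channel (-1.68 ± 0.43). Ucp1, the uncoupling protein that defines brown fat, read 5.35 and 5.80 with CLA and 6.78 and 6.49 in controls. It differed by -1.06 (95% interval -2.25 to 0.13) and did not pass (adjusted p = 0.325).

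The largest rises that held against each control array included several leukocyte genes. Only genes with both CLA arrays above both control arrays were ranked. Rgs1, which quenches chemokine receptors in leukocytes, read 9.66 and 9.52 on the CLA arrays, 7.98 on control array 1 and 4.44 on control array 2. It rose by 3.38 ± 0.63 (adjusted p = 0.00185), made of 1.61 against control array 1 and 5.15 against control array 2. Adam8, a metalloproteinase of myeloid cells, read 9.42 and 10.02 against 8.45 and 4.86 and rose by 3.07 ± 0.64 (adjusted p = 0.00421). Rnf128, a ubiquitin ligase, read 8.21 and 8.12 against 6.67 and 2.97 and rose by 3.35 ± 0.66 (adjusted p = 0.00284). In all 3 genes control array 1 stood nearer to CLA than to control array 2 on the log2 scale.

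Cd44, the hyaluronan receptor, read 10.91 and 11.17 with CLA and 9.69 and 7.63 in controls and rose by 2.38 ± 0.38 (adjusted p = 0.000477). Fbxo2, a glycoprotein-binding subunit of a ubiquitin ligase, read 6.34 and 6.69 against 4.53 and 3.48 and rose by 2.51 ± 0.28 (adjusted p = 1.52e-05). For Fbxo2 and for Brca1, unlike the other 10 of the 12 largest rises, control array 1 stood nearer on the log2 scale to control array 2 than to the CLA mean. The others were Tlr13, a receptor for bacterial RNA (2.71 ± 0.53), Nceh1, a cholesteryl ester hydrolase of macrophages (2.34 ± 0.44), and Slc37a2, an exchanger of sugar phosphates for phosphate (2.29 ± 0.43). Fcgr1, Atp6v0d2, Brca1 and Pclaf complete the 12 and are described with their groups.

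Macrophage genes rose broadly, with control array 1 close behind the CLA arrays. Of 28 measured genes 19 rose and the other 9 did not pass, with a median of 1.25. Against control array 2 alone 21 rose, against control array 1 alone 2 rose and 15 reached an unadjusted p under 0.05. Without CLA array 2 the number that rose was 5, and without CLA array 1 it was 16, with 1 fall. The median level of the list was 8.68 and 9.54 on the CLA arrays, 8.34 on control array 1 and 7.56 on control array 2. Fcgr1, the high-affinity IgG receptor, read 9.70 and 10.15 with CLA and 8.86 and 5.80 in controls and rose by 2.60 ± 0.53 (adjusted p = 0.0037). Mpeg1, the pore-forming perforin-2 of macrophages, read 10.88 and 10.98 against 9.88 and 8.11 and rose by 1.94 ± 0.35 (adjusted p = 0.00168). Fcgr1 and Mpeg1 were the 2 that passed against control array 1 alone, by 1.07 (adjusted p = 0.0163) and 1.05 (adjusted p = 0.0402).

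Cd68, the macrophage scavenger protein macrosialin, read 9.86 and 10.94 with CLA and 9.05 and 7.75 in controls and rose by 2.00 ± 0.40 (adjusted p = 0.00292). Adgre1, the F4/80 antigen, read 9.51 and 10.09 against 8.97 and 8.09 and rose by 1.27 ± 0.26 (adjusted p = 0.00362). From control array 1 alone these differed by 1.35 (adjusted p = 0.126) and 0.83 (adjusted p = 0.153). Gpnmb, a glycoprotein of lipid-laden macrophages, rose by 1.85 ± 0.34. Of 22 measured genes of cholesterol efflux and lysosomes 4 rose and 2 fell, and against control array 1 alone 1 rose. Lipa, the lysosomal acid lipase, read 10.34 and 10.22 against 9.25 and 7.72 and rose by 1.80 ± 0.35 (adjusted p = 0.0027). Atp6v0d2, a subunit of the proton pump in macrophages, rose by 2.31 ± 0.38 and passed against each control array, Gla, a lysosomal galactosidase, rose by 1.73 ± 0.32 and the pump subunit Tcirg1 by 1.26 ± 0.36. Apoe, the lipoprotein that carries cholesterol from cells, fell by 1.49 ± 0.39, and Abca1, the cholesterol pump that loads it, by 0.84 ± 0.17.

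Of 9 measured monocyte genes 4 rose, none of them against control array 1 alone, where 1 reached an unadjusted p under 0.05 in limma. Chil3, a chitinase-like protein of myeloid cells, read 10.38 and 9.70 with CLA, 9.32 on control array 1 and 3.37 on control array 2. Its rise of 3.70 ± 1.05 (adjusted p = 0.0282) was 0.72 against control array 1 (adjusted p = 0.702). Ccr2, the receptor of monocytes for Ccl2, read 10.16 and 10.26 against 9.36 and 7.76 and rose by 1.65 ± 0.40 (adjusted p = 0.0107). Plac8 rose by 1.44 ± 0.42 and the integrin subunit Itga4 by 0.95 ± 0.26. Without CLA array 1 the list had 1 rise, and without CLA array 2 none passed.

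Markers of other leukocytes gave few calls, beside 4.84% of all genes that rose and 5.34% that fell. T and NK cells had 1 rise in 16 measured genes, that of the interleukin 7 receptor Il7r (2.23 ± 0.48), with a list median of -0.09. Mast cells had 1 fall in 9, that of Kit (-0.75 ± 0.23), and dendritic cells and class II had 1 in 13, that of H2-Eb1 (-0.78 ± 0.20). None of these 3 genes passed against control array 1 alone in limma, where 2, 0 and 1 genes of their lists reached an unadjusted p under 0.05. Neutrophil markers (11 genes) and those of B and plasma cells (11 genes) had no call by limma, with 2 and 0 genes at an unadjusted p under 0.05. Over all genes 3714 of 18194 reached that unadjusted level. The median levels of the B cell list, 3.82 to 3.96, and of the neutrophil list, 3.96 to 4.21, lay close to the array medians of 4.1 to 4.2.

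Several chemokines stood high on 3 of the 4 arrays. The median level of the list was 6.75 and 6.96 on the CLA arrays, 6.61 on control array 1 and 5.43 on control array 2. Of 24 measured genes 8 rose and 16 did not pass, with a median difference of 0.66, and 0.27 against control array 1 alone. Both CLA arrays lay above both control arrays at 12 genes and below at 4. Ccl2, the ligand that draws monocytes, read 10.50 and 10.51 on the CLA arrays, 10.09 on control array 1 and 5.92 on control array 2. Its rise of 2.50 ± 0.73 (adjusted p = 0.0336) was 0.42 against control array 1 (adjusted p = 0.779) and 4.59 against control array 2. Ccl7, a ligand of the same receptor, read 8.21 and 8.94 against 8.12 and 4.49, and Ccl9, a myeloid chemokine, read 12.63 and 12.79 against 11.77 and 9.76. They rose by 2.27 ± 0.70 and 1.95 ± 0.39. No chemokine passed against control array 1 alone in limma, where 4 reached an unadjusted p under 0.05 upwards. The number that rose was 4 without CLA array 1 and 2 without CLA array 2.

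Cytokines themselves passed the test in 2 of 18 measured genes, beside 10.2% of all genes that passed. Il1rn, the antagonist of the interleukin 1 receptor, read 7.96 and 8.44 with CLA and 7.09 and 4.05 in controls and rose by 2.63 ± 0.55 (adjusted p = 0.00404), with 1.11 (adjusted p = 0.0507) against control array 1 alone. Il10, which restrains macrophages, read 4.43 and 4.99 against 3.66 and 2.88 and rose by 1.44 ± 0.22 (adjusted p = 0.000357), and passed against each control array alone. Tnf, the tumour necrosis factor, differed by 0.20 (95% interval -0.12 to 0.51) and Il6 by 0.57 (95% interval 0.04 to 1.09). Il1rn and Il10 are both known as inhibitors of inflammation, but a preference for inhibitors within the list was not tested. The probe set of Il10 is dim, with a mean level of 3.63 over all arrays, below the array medians of 4.1 to 4.2. Of 25 measured cytokine receptors and feedback genes 3 rose, Tnfrsf12a (1.08 ± 0.30), Tnfrsf1b (0.90 ± 0.23) and Il10rb (0.79 ± 0.22), of which none passed without CLA array 2. No gene of that list passed against control array 1 alone in limma, where 3 were higher at an unadjusted p under 0.05.

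Acute phase proteins went both ways, with 4 rises and 1 fall in 12 measured genes. No acute phase gene rose against control array 1 alone in limma, where 5 were higher at an unadjusted p under 0.05, and 1 fell. With control array 2 alone 4 rose and 2 fell. Saa3, the serum amyloid A of fat and macrophages, read 10.04 and 9.49 with CLA and 8.98 and 6.80 in controls and rose by 1.88 ± 0.50 (adjusted p = 0.0191), with 0.79 (adjusted p = 0.572) against control array 1 alone. Lcn2, lipocalin 2, read 6.22 and 6.76 against 5.23 and 3.50 and rose by 2.13 ± 0.46 (adjusted p = 0.00543). Saa1 read 4.17 and 7.04 against 3.28 and 3.35, and its rise of 2.29 ± 0.51 came mainly from CLA array 2. Without that array 1 acute phase gene rose. Orm1, orosomucoid, went the other way: it read 9.83 and 9.99 against 11.39 and 11.74 and fell by 1.66 ± 0.18 (adjusted p = 1.52e-05), against each control array too. Of 17 measured interferon response genes 4 rose, Oas1a (1.48 ± 0.32), Oasl2 (1.07 ± 0.25), Usp18 (0.99 ± 0.30) and Irf9 (0.60 ± 0.15), with a median of 0.60 that was 0.08 against control array 1 and 0.98 against control array 2. None of these 4 passed without CLA array 2 or against control array 1 alone, where 3 genes of the list were higher at an unadjusted p under 0.05 in limma, and 8 passed against control array 2 alone.

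Matrix proteases and their inhibitors rose in 7 and fell in 2 of 24 measured genes, and rose in 2 and fell in 1 without CLA array 2. The counts were 1 and 1 against control array 1 alone, and against control array 2 alone 9 rose and 2 fell. Mmp12, the macrophage elastase, read 9.19 and 9.50 with CLA, 8.28 on control array 1 and 3.87 on control array 2, and rose by 3.27 ± 0.77 (adjusted p = 0.00947). Timp1, the inducible inhibitor, read 9.81 and 10.29 against 8.92 and 4.68 and rose by 3.25 ± 0.75 (adjusted p = 0.00816), while its relative Timp4 fell on the same arrays. Against control array 1 alone Mmp12 differed by 1.07 (adjusted p = 0.157) and Timp1 by 1.13 (adjusted p = 0.13). Of 32 measured collagen and matrix genes 4 rose, Tnc, tenascin C (1.25 ± 0.33), Loxl3, a lysyl oxidase (0.83 ± 0.17), Thbs1, thrombospondin (0.80 ± 0.25), and Postn, periostin (0.55 ± 0.14), with a median of 0.13. None of these 4 passed in limma without CLA array 2 or against control array 1 alone, where 3 genes of the list were higher at an unadjusted p under 0.05. Col1a1, the main fibrillar collagen, read 8.42 and 10.38 against 8.70 and 10.13 and differed by -0.02 (95% interval -1.44 to 1.41). Array 2 of each diet was the higher for Col1a1, and the diets overlapped.

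Genes of the cell cycle had the highest median of all lists. Dividing cells switch on DNA replication genes, which E2F factors drive from sites close to the transcription start, before the genes of mitosis. Of 36 measured genes 25 rose and 11 did not pass, with a median of 1.37, and in 29 both CLA arrays lay above both control arrays, against 19% of all genes. Against control array 2 alone 25 rose, and against control array 1 alone 3 rose and 21 reached an unadjusted p under 0.05. Without CLA array 1 the number was 15, and without CLA array 2 it was 21. The median level of the list was 8.05 and 7.92 on the CLA arrays, 7.28 on control array 1 and 5.15 on control array 2. Both the replication genes and the mitotic genes were among those that rose, and so was Cdkn1a, the inhibitor p21 (1.25 ± 0.34).

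The promoters of the cell cycle list were searched for motifs known from such genes, and the 4 with an E2F-type match are printed here. Of the 36 genes 28 have a promoter window in RefSeq (build GRCm38.p6), here the 250 bases before the start, and 20 of those 28 rose. The E2F-type motifs TTTGGCGC, TTTCCCGC, TTTGCCGC and TTTCGCGC were searched on both strands. They were found in 4 of the 28 genes (14.3%), against 2.16% of 27025 genes with such a window and 1.86% of the 32851 windows, and all 4 rose. The other 16 of the 20 that rose had no match. CCAAT, on either strand, was in 19 of the 28 (67.9%) and in 17 of the 20 (85%), against 37.5% of all genes with a window. TTTGAA, known from promoters of mitotic genes, was in 7 of the 28 (25%) and in 6 of the 20 (30%), against 18.3%. A match describes the sequence and is not a binding site. The 4 windows are Cdk1 (chr10:69352913-69353162, minus strand), Mcm5 (chr8:75109259-75109508, plus strand), Mcm6 (chr1:128359706-128359955, minus strand) and Mcm7 (chr5:138171884-138172133, minus strand). They are printed 5′ to 3′ with the E2F-type matches in capitals. Matches on opposite strands overlap in Mcm5 and in the first stretch of Mcm6:
Cdk1: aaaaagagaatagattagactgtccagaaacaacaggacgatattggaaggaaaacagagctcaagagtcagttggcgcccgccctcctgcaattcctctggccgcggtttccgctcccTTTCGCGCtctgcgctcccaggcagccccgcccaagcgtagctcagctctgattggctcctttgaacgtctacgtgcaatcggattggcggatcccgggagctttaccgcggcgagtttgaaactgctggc
Mcm5: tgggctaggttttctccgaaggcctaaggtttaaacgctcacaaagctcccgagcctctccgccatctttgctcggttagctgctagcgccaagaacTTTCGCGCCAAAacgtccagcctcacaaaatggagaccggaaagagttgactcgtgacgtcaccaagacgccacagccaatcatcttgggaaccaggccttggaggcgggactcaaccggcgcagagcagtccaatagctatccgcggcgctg
Mcm6: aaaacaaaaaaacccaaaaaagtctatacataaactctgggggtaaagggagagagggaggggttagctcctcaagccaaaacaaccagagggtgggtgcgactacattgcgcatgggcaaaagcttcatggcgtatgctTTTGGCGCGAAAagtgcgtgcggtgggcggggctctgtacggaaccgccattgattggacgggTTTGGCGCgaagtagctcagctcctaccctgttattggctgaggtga
Mcm7: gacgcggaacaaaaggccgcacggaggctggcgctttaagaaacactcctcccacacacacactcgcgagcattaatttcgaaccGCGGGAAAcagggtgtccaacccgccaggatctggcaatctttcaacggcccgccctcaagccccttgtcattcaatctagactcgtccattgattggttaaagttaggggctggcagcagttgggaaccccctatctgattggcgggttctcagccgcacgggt

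Mcm5, a subunit of the replicative helicase, read 8.80 and 8.40 with CLA and 7.72 and 5.13 in controls and rose by 2.18 ± 0.46 (adjusted p = 0.0049). Mcm6 of the same helicase read 9.31 and 9.45 against 8.28 and 6.64 and rose by 1.92 ± 0.32 (adjusted p = 0.000769). Mcm7 read 10.15 and 9.77 against 9.20 and 8.43 and rose by 1.15 ± 0.26. Cdk1, the kinase that starts mitosis, read 8.33 and 7.76 against 7.20 and 4.95 and rose by 1.97 ± 0.44 (adjusted p = 0.00696). Of these 4 genes only Mcm6 passed against control array 1 alone, by 1.10 (adjusted p = 0.0111).

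Rrm2, the regulated subunit of ribonucleotide reductase, had the largest rise of the list. It read 8.81 and 8.33 with CLA, 7.53 on control array 1 and 4.35 on control array 2, and rose by 2.63 ± 0.64 (adjusted p = 0.0111). Top2a, the topoisomerase of dividing cells, read 8.71 and 8.15 against 7.38 and 4.98 and rose by 2.25 ± 0.46 (adjusted p = 0.00349). Mki67, which encodes the Ki-67 antigen, read 9.72 and 9.23 against 8.52 and 6.03 and rose by 2.20 ± 0.52 (adjusted p = 0.00976). Birc5, survivin, and Cdc20, an activator of the anaphase complex, rose by 2.38 ± 0.54 and 2.40 ± 0.55. Outside the list, Brca1, which repairs DNA in dividing cells, read 6.81 and 6.60 against 4.93 and 3.32 and rose by 2.58 ± 0.32 (adjusted p = 5.27e-05), and Pclaf, a partner of the replication clamp, rose by 2.35 ± 0.45. Both passed against each control array alone, while Rrm2 and Top2a differed by 1.04 (adjusted p = 0.384) and 1.05 (adjusted p = 0.0786) from control array 1. Its probe set is dim, with a mean level of 4.76 over the 28 arrays, and the 3 further probe sets of Brca1, dimmer still, differed by 0.46, 0.30 and 0.19 and did not pass.

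The lists of heat shock, immediate early and unfolded protein response genes held 5 or 6 rises each. Of 15 measured cytosolic heat shock genes 5 rose, Hspa1a, Hspa1b, Hsph1, Cryab (1.12 ± 0.31) and Hsp90aa1 (0.44 ± 0.13), and without CLA array 1 the number was 1. None passed against control array 1 alone in limma, where 3 reached an unadjusted p under 0.05. Of 25 measured immediate early genes 6 rose, led by Fos, which read 10.11 and 10.47 with CLA and 8.91 and 6.23 in controls and rose by 2.72 ± 0.57 (adjusted p = 0.00436). Without CLA array 2 the number of rises was 2. No immediate early gene passed against control array 1 alone in limma, where 8 were higher at an unadjusted p under 0.05, and against control array 2 alone 10 rose. Fos differed by 1.38 from control array 1 (adjusted p = 0.162). Egr2 rose by 1.92 ± 0.41, Fosl1 by 1.41 ± 0.38 and the phosphatase Dusp6 by 1.31 ± 0.30. Egr1 overlapped between the diets and differed by 0.33 (95% interval -0.20 to 0.85). Of 21 genes of the unfolded protein response of the endoplasmic reticulum 6 rose, among them Creld2 (1.45 ± 0.26), Manf (1.34 ± 0.26) and Pdia6, a disulfide isomerase (0.96 ± 0.18). Hspa5, the main chaperone of that compartment, read 12.87 and 12.74 against 12.44 and 11.83 and rose by 0.67 ± 0.18 (adjusted p = 0.0237). Pdia6 was the 1 gene of the list that passed against control array 1 alone (0.91, adjusted p = 0.0394).

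The integrated stress response was split, with 4 rises and 4 falls in 28 measured genes, and 1 rise without CLA array 1. The list had 2 falls and no rise against control array 1 alone in limma, where 1 was higher at an unadjusted p under 0.05, and against control array 2 alone 6 rose and 4 fell. Atf3, its stress-induced factor, read 7.78 and 8.24 with CLA and 7.05 and 5.37 in controls and rose by 1.80 ± 0.36 (adjusted p = 0.00285), and Slc7a11, the cystine exchanger, rose by 1.08 ± 0.27. Asns, asparagine synthetase, and Phgdh, the first enzyme of serine synthesis, went down: Asns read 8.73 and 8.55 against 9.60 and 9.84 and fell by 1.08 ± 0.18 (adjusted p = 0.000781), and Phgdh fell by 1.55 ± 0.24 (adjusted p = 0.000362). Both also passed against each control array alone. The factor Ddit3 and the pseudokinase Trib3 differed by 0.37 (95% interval -0.11 to 0.84) and 0.17 (95% interval -0.45 to 0.78). The diets overlapped at Trib3, and its sign turned without CLA array 1 (-0.13).

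NRF2 targets and glutathione genes had 4 rises and 6 falls in 31 measured genes, with 3 falls without CLA array 1 and with 1 rise and 4 falls without CLA array 2. There were 3 falls and no rise against control array 1 alone in limma, where 5 were higher at an unadjusted p under 0.05, and against control array 2 alone 6 rose and 7 fell. Srxn1, sulfiredoxin, rose by 1.79 ± 0.38, Mt2, a metallothionein, by 1.24 ± 0.30 and Txn1, thioredoxin, by 0.56 ± 0.13, beside Slc7a11. All 6 falls were glutathione transferases or Gpx3, the secreted peroxidase: Gsta3 read 8.35 and 8.02 with CLA and 9.78 and 10.16 in controls and fell by 1.79 ± 0.22 (adjusted p = 5.25e-05), and Gstt1 fell by 1.51 ± 0.21. Hmox1, heme oxygenase, read 8.58 and 9.71 against 8.36 and 5.82 and differed by 2.06 ± 0.65 (adjusted p = 0.0514), past no threshold. Of 24 regulators of cell death 5 rose, the pro-death genes Bcl2l11 (1.61 ± 0.50), Pmaip1 (0.97 ± 0.27) and Casp4 (0.87 ± 0.24), the stress gene Gadd45b (1.19 ± 0.31) and the protective Bcl2l1 (0.64 ± 0.17). The mitophagy receptor Bnip3 fell (-1.13 ± 0.20). With either CLA array left out none of the 5 rises passed in limma, nor did any against control array 1 alone, where 1 gene of the list was higher at an unadjusted p under 0.05. Hsd11b1, which activates glucocorticoids in fat, read 9.28 and 8.87 against 10.79 and 11.10 and fell by 1.87 ± 0.19 (adjusted p = 4.64e-06).

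Vessel markers were lower in part. The endothelial list also holds growth factors such as Vegfa, so its falls are not all those of endothelial markers. Of 21 measured endothelial genes 6 fell, with a median of -0.56, and none fell against control array 1 alone in limma, where 5 reached an unadjusted p under 0.05. With either CLA array left out, the number that fell was 2. Nos3, the endothelial nitric oxide synthase, read 6.32 and 6.66 with CLA and 7.66 and 8.63 in controls and fell by 1.66 ± 0.40 (adjusted p = 0.0112), with -1.17 (adjusted p = 0.277) against control array 1 alone. Cldn5, the tight junction claudin of endothelium, read 7.29 and 7.06 against 7.93 and 9.03 and fell by 1.31 ± 0.39. Vegfa, the growth factor that adipocytes send to endothelium, read 6.82 and 6.55 against 7.68 and 8.30 and fell by 1.31 ± 0.23 (adjusted p = 0.00132). Of 12 pericyte genes 2 fell, the potassium channel subunits Kcnj8 (-0.95 ± 0.19) and Abcc9 (-0.81 ± 0.22). Of 19 progenitor genes 1 fell, Mest (-1.01 ± 0.29), and of 18 clock genes 1, Cry2 (-0.75 ± 0.17). Both counts are near the 5.34% of all genes that fell. Of 12 adrenal genes 1 rose, Star, which moves cholesterol into mitochondria (1.45 ± 0.30), and 1 fell, Mc2r. Skeletal muscle genes had no call by limma and none of the 16 reached an unadjusted p under 0.05, but their median level was 6.66 and 7.06 on the CLA arrays and 5.98 and 6.37 on the control arrays.

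The diet effect of day 2 differed from that of day 1 at 654 genes (3.59%), more positive at 342 (1.88%) and more negative at 312 (1.71%). The 3′ minus 5′ difference of Actb on day 1 was 2.77 and 1.5 on control arrays 1 and 2 and 2.72 and 2.28 with CLA. On the arrays of day 2 it was 1.14 to 1.63. The control arrays of day 1 thus differed in this measure, and no fit left out a single array of day 1. With control array 1 alone on day 2 484 genes passed (2.66%), 160 upwards (0.879%) and 324 downwards (1.78%), and with control array 2 alone 1036 passed (5.69%), 696 upwards (3.83%) and 340 downwards (1.87%). The cell cycle list gave 11 of its 36 genes to the first direction, with a median diet effect of -0.03 on day 1. The heat shock list gave 14 of its 15 genes to the second, with medians of 2.20 on day 1 and 0.40 on day 2. Of the integrated stress response 11 of 28 genes were lower than on day 1, with medians of 1.10 and 0.23, and 5 of 16 genes of lipolysis and its receptors were less negative, with medians of -1.74 and -0.43.

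**Figure D4:**
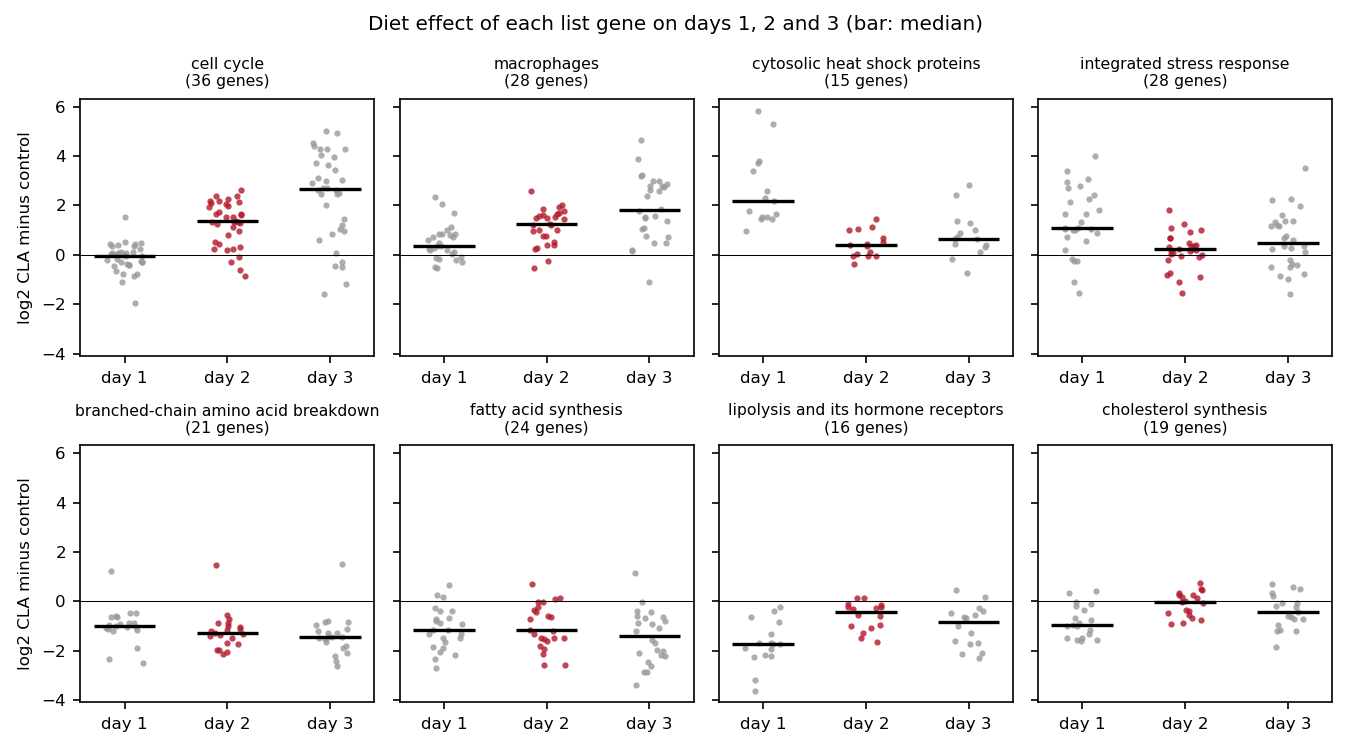
Each point is the log2 difference of CLA from control for a gene of 8 lists on days 1, 2 and 3, each day with its own 4 arrays, and bars are medians. The cell cycle median goes from -0.03 through 1.37 to 2.68, while the heat shock median is 2.20 on day 1, 0.40 on day 2 and 0.66 on day 3.

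Among genes called on day 2 the largest shifts upwards from day 1 were those of Rrm2, Tcf19, Birc5, Gmnn and Brca1, genes of DNA replication, division and repair. Rrm2 read 4.54 and 3.42 on the CLA arrays of day 1 and 5.40 and 4.26 on its control arrays, a diet effect of -0.85, and the effect of day 2 was higher by 3.48 ± 0.90 (adjusted p = 0.0367). For Brca1 the shift was 2.61 ± 0.46 (adjusted p = 0.00271), and it passed with either control array of day 2. For Tcf19, a factor of late G1 phase, it was 2.87 ± 0.47 (adjusted p = 0.0016), and that gene had fallen on day 1 (-1.51). Gmnn, geminin, shifted by 2.82 ± 0.69 and Birc5 by 2.85 ± 0.76. With control array 1 alone the shifts of Rrm2, Birc5 and Gmnn missed the threshold (adjusted p = 0.118, 0.103 and 0.0892).

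The largest shifts downwards were those of Hspa1a, Ptx3, Cxcl10, Hspa1b and Chka. Hspa1a, the inducible chaperone Hsp70, read 10.44 and 10.52 on the CLA arrays of day 1 and 4.67 and 4.60 on its control arrays. On day 2 it read 6.16 and 5.27 against 5.17 and 4.14 and still rose, by 1.06 ± 0.27 (adjusted p = 0.0146), 4.79 less than on day 1 (SE 0.38, adjusted p = 5.15e-07). Hspa1b shifted by -3.84 ± 0.52 and Hsph1, a cochaperone, by -3.04 ± 0.24. Hspa1a and Hspa1b are near-identical copies, and their probe sets may share signal. Ptx3, the long pentraxin, had a diet effect of 6.29 on day 1 and 1.97 on day 2, a shift of -4.32 ± 0.64 (adjusted p = 0.000693). Cxcl10, an interferon-induced chemokine, shifted by -3.92 ± 0.55 (adjusted p = 0.000476) and Chka, choline kinase, by -3.22 ± 0.41. All 6 passed with either control array of day 2 alone.

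Several genes that did not pass on day 2 had passed on day 1, and the change itself was tested. Il6 had a diet effect of 4.21 on day 1 and 0.57 on day 2, a shift of -3.64 ± 0.35 (adjusted p = 9.79e-06). Egr1 went from 3.05 to 0.33 (adjusted p = 0.000238 for the shift), Trib3 from 2.95 to 0.17 (adjusted p = 0.000699) and Ddit3 from 2.70 to 0.37 (adjusted p = 0.000341). Pparg and Lep shifted the other way, from -1.92 to -0.43 (adjusted p = 0.00192) and from -2.31 to -0.25 (adjusted p = 0.0129). Among genes called on day 2, Asns went from a rise to a fall, from 1.02 on day 1 to -1.08 on day 2 (adjusted p = 0.000128). Mc2r had fallen further on day 1, by 3.62, than on day 2 (adjusted p = 0.000476). Pdhb, a subunit of pyruvate dehydrogenase, had a diet effect of 0.12 on day 1 and fell by 1.22 ± 0.14 on day 2 (adjusted p = 0.000699 for the shift). All 9 shifts passed with either control array of day 2 alone.

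**Figure D5:**
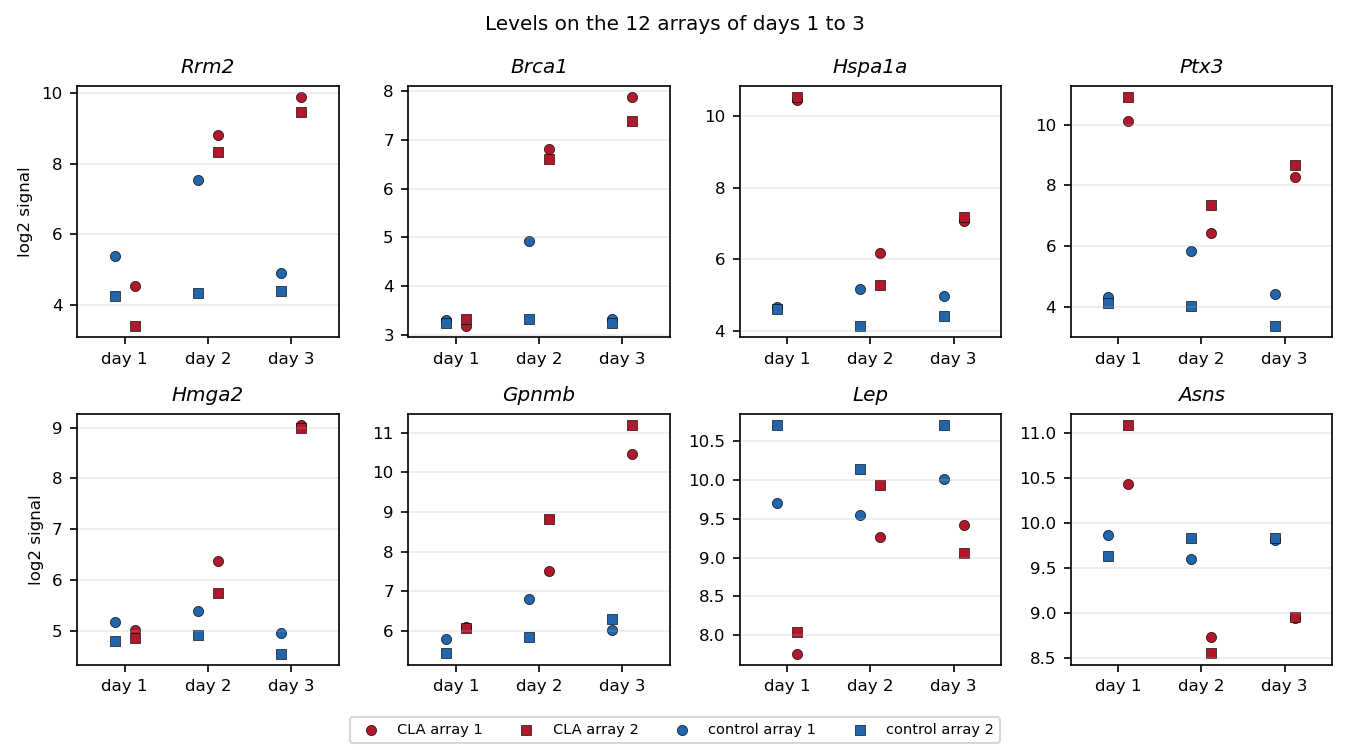
Log2 signal of 8 genes on the 12 arrays of days 1, 2 and 3 is shown, with CLA in red, control in blue, array 1 as circles and array 2 as squares. On day 2 control array 1 of Rrm2 lies at 7.53 beside CLA levels of 8.81 and 8.33, while for Asns both control arrays (9.60 and 9.84) lie above both CLA arrays (8.73 and 8.55).

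The diet effect of day 2 differed from that of day 3 at 17 genes (0.0934%), of which 16 were smaller or more negative on day 2 (0.0879%) and 1 was more positive (0.0055%). With control array 2 alone 1 gene passed, Hmga2, and 719 reached an unadjusted p under 0.05 in limma. With control array 1 alone 401 genes passed (2.20%). The number of genes that differ from day 3 thus depends on the control array of day 2. Hmga2, a chromatin protein of growing cells, read 6.38 and 5.75 with CLA and 5.38 and 4.91 in controls on day 2, and 9.05 and 8.99 and 4.96 and 4.55 on day 3. Its rise on day 2 was smaller by 3.35 (SE 0.36, adjusted p = 0.000364), and with control array 2 alone the adjusted p was 0.00502. Atp6v0d2 was lower than on day 3 by 3.15 ± 0.54 (adjusted p = 0.0277) and Gpnmb by 2.83 ± 0.48 (adjusted p = 0.0277). Hpgds, a prostaglandin D synthase (-2.13 ± 0.35), and Cdca3, of mitosis entry (-2.37 ± 0.45), completed the genes called on day 2 with the largest shifts. With control array 2 alone these 4 shifts did not pass (adjusted p from 0.0901 to 0.272).

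Of the genes in the lists 3 showed this difference, Gpnmb of the macrophage list and Atp6v0d2 of the lysosome list, beside Angpt2, an angiopoietin of the endothelial list that did not pass on day 2 (0.44, against 1.94 on day 3). For the cell cycle list no gene passed in limma, and 25 of 36 reached an unadjusted p under 0.05 in the direction of a smaller effect on day 2. Over all genes 1088 of 18194 reached that unadjusted level, in either direction. The median effect of the cell cycle list on day 3 was 2.68, against 2.02 on day 2 with control array 2 alone and 0.78 with control array 1 alone. For the macrophage list these values were 1.82, 1.72 and 0.67, and for branched-chain amino acid breakdown -1.44, -1.48 and -1.13.

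Further probe sets gave a second reading of some genes. Of the 182 genes with values above, 90 have more than 1 probe set, and for 33 of these a further probe set differed between the diets by over 1 log2 unit more or less than the one used. In 31 of the 33 all such probe sets were dim, with a mean level under 6, as was the one used in 6 of the 33. For 0 genes a further probe set had the opposite sign at an adjusted p under 0.05. Of all 182 genes, 28 have a dim probe set as the one used.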

How the data were processed

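The authors' deposited log2 values of 28 arrays were made with RMA, per the submitters' processing notes; its version is not given in the sources used here. RMA summarises the probes of a set after background correction and quantile normalisation, so differences are relative to an equal overall signal. Of 45101 probe sets 34958 name 1 gene in the platform annotation, of which 34754 matched RefSeq by gene ID. Where a gene had several, its brightest set on average was used, which left 18194 genes. limma 3.58.1 in R 4.3.3 fitted 14 groups of diet and day to all 28 arrays (14 residual degrees of freedom), with no block, and p-values were adjusted over all genes by the method of Benjamini and Hochberg. A control array used alone was assumed to vary like the other groups. The fit was tested on simulated data. Figures were drawn with Python 3.11.15 and matplotlib 3.10.9.

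Members and gene lists were chosen with earlier results of these data known. The 12 largest rises and the 12 largest falls named were taken from genes called in all 3 comparisons. Both CLA arrays of each also had to lie beyond both control arrays. Also named are the 5 largest differences in each direction from day 1 and day 3 among genes called on day 2. Up to 4 called members of a list and a set of standard markers were added. Genes named beyond these were chosen after their values were seen: Abca1, Acot1, Angpt2, Bcat1, Bcl2l1, Casp4, Cdk1, Cdkn1a, Cpt1a, Cpt2, Cry2, H2-Eb1, Hsp90aa1, Kit, Mcm5, Mcm6, Mcm7, Mest, Orm1, Pdhb, Slc16a3, Slc25a20, Tcirg1 and Txn1. Alternatives changed the scaling, the probe set of a gene, the filter on dim genes, the arrays in the fit and their weights.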

Additional observations from a re-analysis of the deposited data

Results flagged for a closer look

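Genes with values in the report whose diet effect on day 2 differed from that on day 1, by the limma test of the difference itself, are given here as the day 2 effect minus the day 1 effect (log2, n = 2 arrays in each diet on each day). All comparisons of day 2 share its 4 arrays.

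Cell cycle and DNA repair genes shifted upwards: Rrm2 by 3.48, Tcf19 by 2.87, Birc5 by 2.85, Gmnn by 2.82, Brca1 by 2.61, Mcm5 by 2.47, Pclaf by 2.45 and Mcm6 by 1.79. Leukocyte and lysosomal genes did too, Atp6v0d2 by 2.13, Adgre1 by 1.57, Il10 by 1.51 and Itga4 by 1.43. Among adipocyte and matrix genes the upward shifts were 2.16 for Mc2r, 2.07 for Lep, 1.49 for Pparg and 0.92 for Loxl3.

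Chaperone genes shifted downwards, by -4.79 for Hspa1a, -3.84 for Hspa1b, -3.04 for Hsph1, -1.10 for Hsp90aa1 and -1.20 for Hspa5. Genes of stress, signalling and inflammation with downward shifts were Ptx3 (-4.32), Cxcl10 (-3.92), Il6 (-3.64), Fosl1 (-3.01), Thbs1 (-2.82), Trib3 (-2.78), Egr1 (-2.72), Ddit3 (-2.34) and Atf3 (-2.21). The same held for Casp4 (-2.13), Mt2 (-2.13), Asns (-2.10), Srxn1 (-2.01) and Tnfrsf12a (-1.58). Metabolic and vessel genes with a more negative effect on day 2 were Inmt (-2.18), Mogat1 (-1.92), Eci3 (-1.85), Ces1d (-1.62) and Gsta3 (-1.40). Further ones were Pdhb (-1.34), Clybl (-1.29), Hsd11b1 (-1.26), Fmo1 (-1.24) and Kcnj8 (-1.14). Chka shifted by -3.22, but its difference on day 2 was positive (0.95). Over all genes 654 differed from day 1.

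From day 3 the effect of day 2 differed at 17 genes, among them Hmga2 (-3.35), Atp6v0d2 (-3.15), Gpnmb (-2.83), Cdca3 (-2.37), Hpgds (-2.13) and Angpt2 (-1.51).

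Another 10092 probe sets, with no gene or several in the annotation, enter no comparison above. Of these 151 passed the same test on day 2 (1.5%), 76 higher and 75 lower with CLA.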

How the results depend on the processing

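The number of genes called on day 2 depended most on the arrays. Leaving out 1 of the 4 arrays of day 2 gave 343 to 2434 called genes (67 to 1367 up, 276 to 1067 down), 475 to 1036 genes that differed from day 1 (160 to 696 up, 217 to 340 down) and 1 to 401 from day 3. Leaving out 1 CLA array moved the calls against control array 1 alone to between 137 and 485 (32 to 105 up, 105 to 380 down), and those against control array 2 alone to between 1780 and 2316 (950 to 1422 up, 830 to 894 down). With only the 4 arrays of day 2 no gene passed in limma, 0 up and 0 down, in any of the 3 comparisons, while 2412, 1045 and 2794 reached an unadjusted p under 0.05 with both control arrays, array 1 and array 2. With the 12 arrays of days 1 to 3 the counts were 508 on day 2 (133 up, 375 down), 48 (3 and 45) and 1294 (776 and 518) against control arrays 1 and 2, and 86 (22 and 64) and 0 against days 1 and 3, where 712 reached an unadjusted p under 0.05. Array weights gave 574 rises and 195 genes that differed from day 1 (74 up, 121 down). The count for day 3 was 10 with arrays centred or quantile-normalised again, 9 with array weights or the probe set of highest variance, 32 with the mean of all probe sets and 3 among genes with a mean of at least 6. A 2-fold difference of means was reached at 1076 genes (482 down), and against each control array at 444 (146 up, 298 down).

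Array numbers were also used as a block. Same-numbered arrays of the diets deviated together with correlations of 0.0978 (day 7) to 0.566 (day 1), 0.49 on day 2, over 7 days, and the labels state no pairing. With the replicate block 3037 genes were called on day 2 (1477 up, 1560 down), 1525 differed from day 1 (882 up, 643 down) and 158 from day 3. Of the genes named, Cebpa (adjusted p = 0.0337) and Hmox1 (adjusted p = 0.039) passed with the block in limma, Hsp90aa1 did not pass with it (adjusted p = 0.056), and Lipe differed by -1.08 ± 0.41 (adjusted p = 0.0946).

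Of the 182 genes named, 180 kept direction and side of the threshold with arrays centred, 122 without CLA array 1, 122 without CLA array 2, 175 without control array 1, 69 without control array 2, 73 with the 12 arrays of days 1 to 3 and 14, none of them called, with only the 4 arrays of day 2. The sign turned for Lep without CLA array 1 (0.095) and control array 2 (0.05), with a range of -0.585 to 0.095 when 1 array was left out. It turned for Trib3 without CLA array 1 (range -0.13 to 0.46), for Egr1 without control array 2 (-0.075 to 0.725) and for Col1a1 without CLA array 1 and control array 2 (-0.995 to 0.965). Col1a1 also turned with quantile normalisation (0.0111) and the mean of all probe sets (0.1225). None of these 4 genes passed on day 2. The causes were not tested.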
